A study of Rattus norvegicus with 11 samples.

Results

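The interleukin-1 (IL-1) family genes examined here were 10 cytokines, inhibitors and receptors chosen by name: Il1a, Il1b, Il33 and Il18 (cytokines), Il1rn, Il1r2 and Il18bp (inhibitors), and Il1r1, Il1rap and Il1rl1 (receptor chains). All 10 were present among the 24481 genes of the read table and the 24205 genes of the FPKM table (fragments per kilobase of gene model normalized to the fragments mapped). Each of them passed the filter on low counts in all 3 comparisons, so no member was lost. They were measured by stranded mRNA sequencing of ileum from SD rats aged 6 to 8 weeks, in 11 libraries. The SAP group (4 libraries) had severe acute pancreatitis, induced by running 3% sodium taurocholate into the pancreatic duct, and was given vehicle (saline/ethanol/Tween-80) into the peritoneum. The JZL184 group (4 libraries) had the same pancreatitis and was given 10 mg/kg JZL184, an inhibitor of monoacylglycerol lipase (MAGL), the enzyme that breaks down the endocannabinoid 2-AG. The control group (3 libraries) was given the same vehicle, and whether its rats were operated on is not given in the sources used here. Rats were assigned to groups 24 h after surgery and killed 24 h after the injection, so each value describes 1 time point. The labels call the tissue ileum and the cells intestinal epithelial cells, list a control plasmid as the treatment of the control group, and use the word oil in the titles of the SAP libraries.

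IL-1 alpha and IL-1 beta both signal through the receptor encoded by Il1r1 together with the accessory chain encoded by Il1rap, and lead through MyD88 and IRAK kinases to NF-kB and to the release of chemokines. The family is held in check by a receptor antagonist (Il1rn), by a decoy receptor that binds IL-1 without signalling (Il1r2) and by a soluble binding protein for IL-18 (Il18bp). IL-33, an alarmin of stromal, endothelial and epithelial cell nuclei, signals through ST2 (Il1rl1), and IL-18, which gut epithelium makes as a precursor, is cut to its active form by caspase-1.

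The libraries held 26341299 to 33847135 reads counted to genes. Control libraries 1 and 2 differed far less from each other (chi-square per gene of 2.81) than any other pair of libraries from 1 group (77.5 to 563), and were therefore counted as 1 sample, which leaves n = 2 for the control group, n = 4 for SAP and n = 4 for JZL184. SAP libraries 1 and 2 stood apart by the sum of their FPKM values (484256 and 494474, against 596324 to 679911 in the other libraries). SAP library 2 also held 20 reads on 3 Y-linked genes, against 1222 to 4665 in the others, although the study's methods describe male rats. The epithelial marker Epcam was at 2220 to 3814 FPKM in every library, and fibroblast, smooth muscle and endothelial markers were present in all of them too, so the libraries held ileum with several cell types. The ileal bile acid binding protein Fabp6 spanned 79.9 to 9000 FPKM in the JZL184 group, 3079 to 13670 in SAP and 20506 to 21819 in the control group. In bulk tissue, fewer cells of a type and less RNA per cell cannot be told apart.

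Across the 3 comparisons, the IL-1 receptor Il1r1, the cytokines Il1a and Il18, the decoy receptor Il1r2 and the cytokine Il1b were highest in the JZL184 group and lowest in the control group by group mean, while the ST2 gene Il1rl1 was lowest in the JZL184 group and Il33 was highest in SAP. A gene was called where edgeR's adjusted p was under 0.05 and the fold change was above 2 or below 0.5. For JZL184 against control, edgeR called 3 of the 10 members, all higher (Il1a, Il1r1 and Il18), where 2.16% of the 15916 genes tested were called in either direction. DESeq2, the tool used by the study, called 5 members, adding Il1b and Il1r2, against a background of 10.8%. Neither edgeR (0%) nor DESeq2 (1.23%) called a member for SAP against control, where edgeR gave 2 members and 1457 of 16029 genes (9.09%) an unadjusted p under 0.05, and limma-voom called 0 members and 0.0873% of genes. JZL184 against SAP also had 0 members called by edgeR, with 0% of 15308 genes called. In that comparison 7 members and 3267 genes (21.3%) had an unadjusted p under 0.05, limma-voom called 3 members (Il1a, Il1r1 and Il33) against a background of 4.57%, and DESeq2 called 3 (Il1a, Il1r1 and Il1r2) against a background of 6.98%. For JZL184 against control, 6 members and 26.3% of genes had an unadjusted p under 0.05. The calls of that comparison moved with single samples, for the members and for all genes alike. No member was called by edgeR without the sample of control libraries 1 and 2 (0% of genes), without control library 3 (0.00601%) or without JZL184 library 2 (0.158%). Without JZL184 library 4 it called Il1r1 alone (0.493% of genes), and without JZL184 library 1 it called 7 members (12% of genes). The SAP, JZL184 and control samples are each used in 2 of the 3 comparisons, so the comparisons are not independent of each other.

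**Figure D1:**
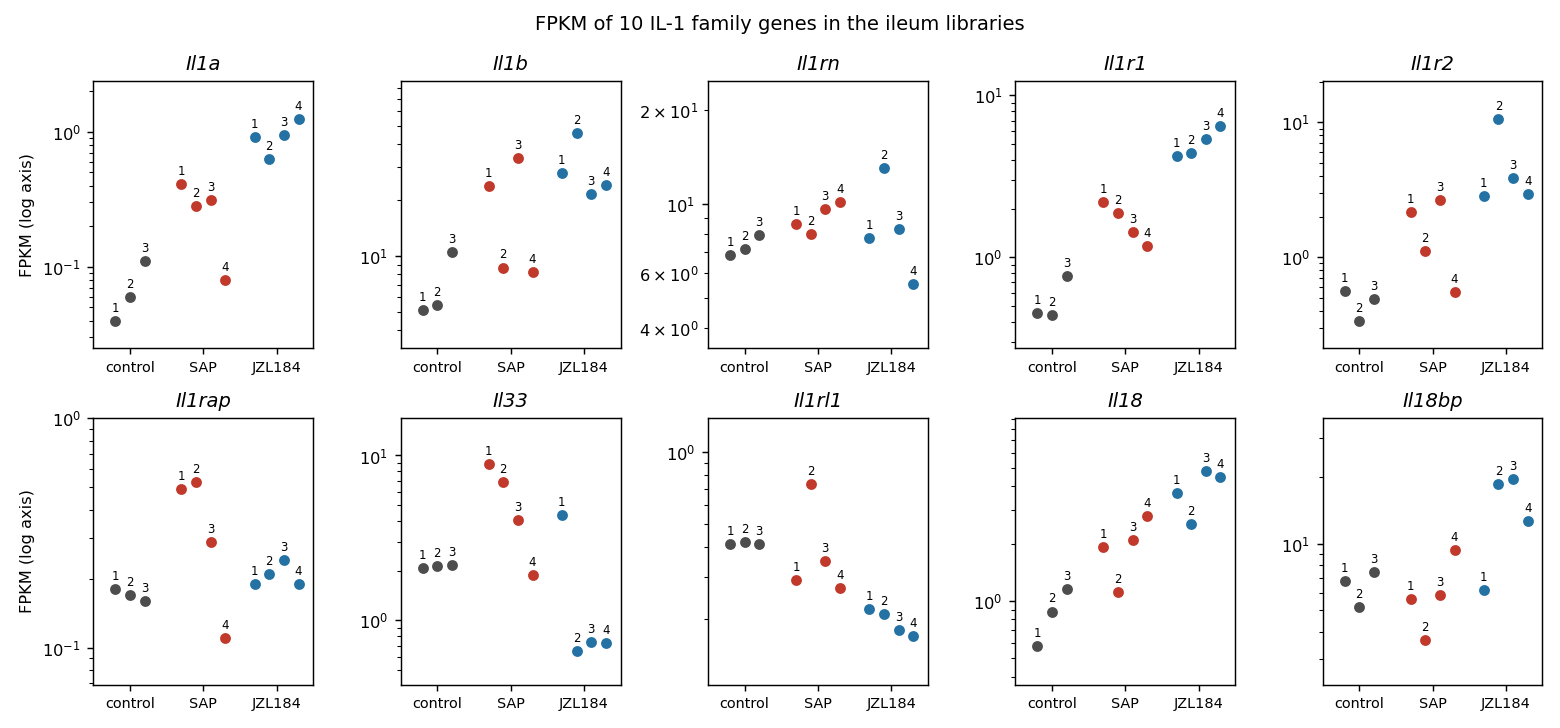
FPKM (log axis) of the 10 genes in each of the 11 libraries, 1 point per library with its replicate number, coloured by group. Il1r1 separates all 3 groups (0.44 to 0.77, 1.18 to 2.21 and 4.24 to 6.46). For Il1rn the JZL184 range (5.53 to 13.02) spans those of control (6.88 to 7.98) and SAP (8.04 to 10.13), which do not overlap by FPKM.

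Separation of groups was counted on normalized counts. For SAP against control, 2 members lay wholly above the control samples (Il1r1 and Il1r2), as did 9.88% of all genes, and 0 lay wholly below, where 13.1% of all genes did. For JZL184 against SAP, 4 members lay wholly above (Il1a, Il1r1, Il1r2 and Il18) against 6.01% of genes, and Il1rl1 alone lay wholly below against 5.72%. For JZL184 against control, 5 members lay wholly above against 18% of genes and 1 wholly below against 20.3%. The median log2 fold change of the 10 members was 1.01 for SAP against control, 0.99 for JZL184 against SAP and 1.50 for JZL184 against control, where the medians over all genes tested were 0.06, -0.05 and 0.08.

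**Figure D2:**
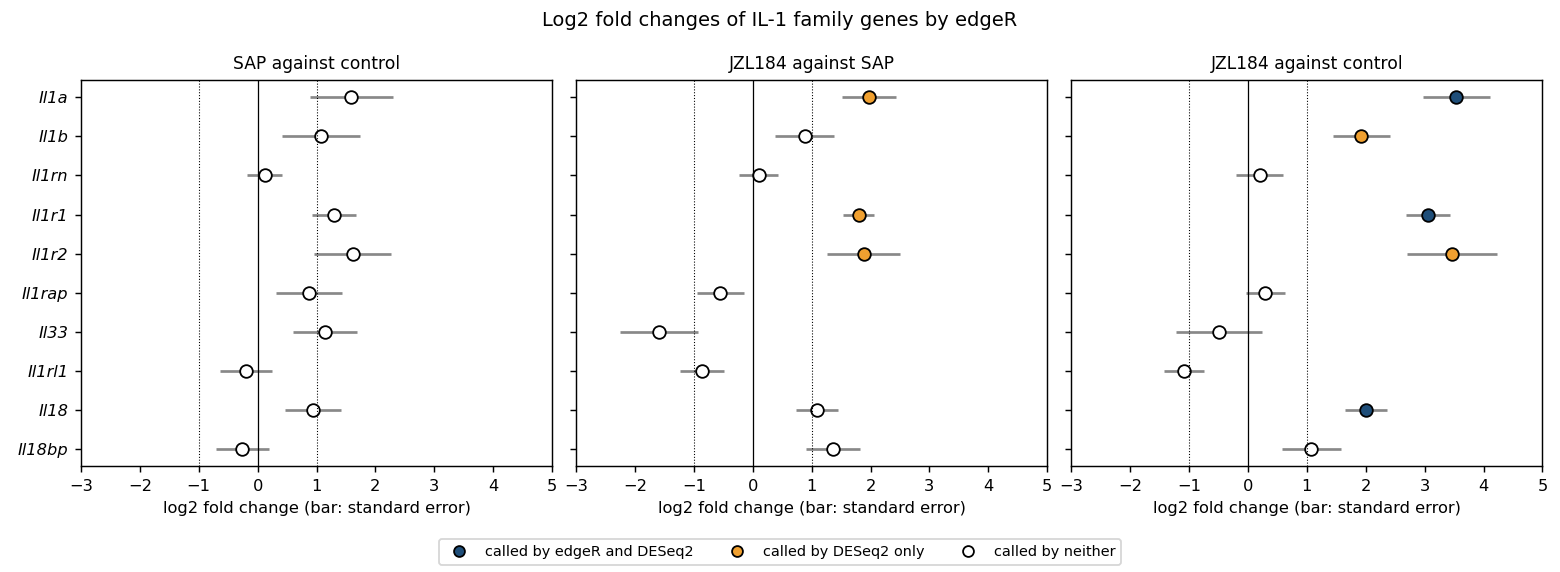
Log2 fold changes of the 10 genes by edgeR (points) with standard errors (bars) for SAP against control, JZL184 against SAP and JZL184 against control; fill shows which tools called the gene and dotted lines mark a 2-fold change. The called genes are all higher in the JZL184 group, and Il33 and Il1rl1 lie on the negative side in both comparisons of the JZL184 group.

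The stretches before the transcription start are shown for the 3 genes called by edgeR, Il1a, Il1r1 and Il18, and for Il1b, the other IL-1 agonist. Each line gives the 150 bases upstream of a start site in RefSeq, build GRCr8, 5′ to 3′ on the gene's own strand, at chr3:136990018-136990167 (minus strand) for Il1a, chr3:137036582-137036731 (minus strand) for Il1b, chr9:50034233-50034382 (plus strand) for Il1r1 and chr8:59801922-59802071 (plus strand) for Il18. Capitals mark the matches to 5 motifs.
Il1a: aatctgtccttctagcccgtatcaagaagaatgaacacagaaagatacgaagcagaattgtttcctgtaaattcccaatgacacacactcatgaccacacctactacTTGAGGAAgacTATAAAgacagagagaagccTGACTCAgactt
Il1b: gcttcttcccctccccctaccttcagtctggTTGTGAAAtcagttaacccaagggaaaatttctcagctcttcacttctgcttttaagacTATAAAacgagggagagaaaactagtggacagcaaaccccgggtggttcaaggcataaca
Il1r1: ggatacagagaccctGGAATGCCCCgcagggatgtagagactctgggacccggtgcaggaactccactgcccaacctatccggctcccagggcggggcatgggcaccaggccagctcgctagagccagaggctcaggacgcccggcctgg
Il18: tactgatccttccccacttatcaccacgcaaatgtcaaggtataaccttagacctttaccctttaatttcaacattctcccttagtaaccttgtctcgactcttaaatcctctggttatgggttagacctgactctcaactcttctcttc

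The motifs, searched on both strands, were NF-kB, AP-1 (TGANTCA), C/EBP (TTNNGNAA), STAT (TTCNNNGAA) and the TATA box (TATAAA). The Il1a window held a C/EBP match at -43 to -36, a TATA box at -32 to -27 and an AP-1 match at -12 to -6, counted from the start site. The Il1b window held a C/EBP match at -119 to -112 and a TATA box at -60 to -55, the Il1r1 window held an NF-kB match at -135 to -126 on the opposite strand, and the Il18 window held no match. Among the 33469 windows of the same length, 3.82% held an NF-kB match, 3.69% an AP-1 match, 23.3% a C/EBP match, 4.41% a STAT match and 8.00% a TATA box. A match is a description of letters, and 9 of the 10 members had a window in the table.

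Il1a, an alarmin released by damaged epithelium, was scarce in every library. It was at 0.04, 0.06 and 0.11 FPKM in control libraries 1 to 3, at 0.41, 0.28, 0.31 and 0.08 in SAP libraries 1 to 4, and at 0.91, 0.63, 0.95 and 1.25 in JZL184 libraries 1 to 4. All 4 JZL184 libraries lay above all others, whereas SAP library 4 fell within the control range. The control values rest on only 3, 5 and 9 reads, and those of the JZL184 group on 49 to 93. Il1a rose in the JZL184 group against control, with a log2 fold change of 3.53 (SE 0.57; edgeR adjusted p = 0.0266). That call was lost when JZL184 library 2, JZL184 library 4 or either control sample was left out. Against SAP its log2 fold change was 1.98 (SE 0.46; edgeR adjusted p = 0.0889; DESeq2 adjusted p = 0.00149), and the exact permutation test on FPKM gave the smallest two-sided p that 4 against 4 allows, 0.0286. Between SAP and control the log2 fold change was 1.59 (SE 0.71; edgeR adjusted p = 0.459), and the groups overlapped. The permutation p-values here and below are not adjusted over the 10 members tested.

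Il1b, the main secreted agonist made by myeloid cells, was far more abundant per length than Il1a in every library. Its FPKM was 5.13, 5.49 and 10.54 in control libraries 1 to 3, 23.87, 8.68, 33.76 and 8.21 in SAP libraries 1 to 4, and 28.03, 45.75, 21.46 and 23.94 in JZL184 libraries 1 to 4. The SAP group was split, with libraries 2 and 4 inside the control range and libraries 1 and 3 inside the JZL184 range. As mean ± SD, the control group was at 7.93 ± 3.70 FPKM (n = 2), SAP at 18.6 ± 12.4 (n = 4) and JZL184 at 29.8 ± 11.0 (n = 4). By edgeR the log2 fold change was 1.93 (SE 0.48; adjusted p = 0.0680) for JZL184 against control, a comparison that DESeq2 called (adjusted p = 0.00242). The neighbouring groups did not differ beyond their spread: the log2 fold change was 1.08 (SE 0.66; edgeR adjusted p = 0.468) for SAP against control and 0.88 (SE 0.50; edgeR adjusted p = 0.319) for JZL184 against SAP.

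The summed neutrophil markers moved with part of this pattern. The summed FPKM of 6 neutrophil markers was 0.89 to 2.06 in control, where the receptor Cxcr2 was at 0 in all libraries, 8.05 to 79.7 in SAP and 12.6 to 246 in JZL184. The sum was high in SAP libraries 1 and 3 (79.7 and 49.4) and low in SAP libraries 2 and 4 (8.59 and 8.05), the same split as for Il1b, and highest in JZL184 library 2, which also had the most Il1b. Nearly all of the sum came from the calprotectin subunits S100a8 and S100a9, and the other markers did not show that split throughout. Cxcr2 was at 0.39, 0.34, 0.30 and 0.05 FPKM in SAP libraries 1 to 4 and at 0.18, 0.20, 0.02 and 0.10 in JZL184 libraries 1 to 4, and the granule enzyme Mpo was at 0.33 to 0.56 FPKM in control, 0.07 to 0.30 in SAP and 0.08 to 0.25 in JZL184. JZL184 library 3, with 12.6, kept Il1b at 21.46 FPKM. The 6 macrophage and monocyte markers summed to 12.6 to 15.4 FPKM in control, 21.9 to 45.0 in SAP and 14.4 to 45.3 in JZL184. This sum did not share the split of Il1b, being highest of its group in SAP library 2 (45.0) and lowest in JZL184 library 1 (14.4). Its markers differed in direction: Csf1r was at 3.29 to 4.19 FPKM in control and 1.01 to 2.10 in JZL184, and Cd163 at 0.60 to 0.77 and 2.65 to 7.66. The part of neutrophils and macrophages in the result was not tested.

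Il1rn, which encodes the receptor antagonist, stayed in a narrow range. It was at 6.88, 7.15 and 7.98 FPKM in control libraries 1 to 3, 8.61, 8.04, 9.66 and 10.13 in SAP libraries 1 to 4, and 7.77, 13.02, 8.32 and 5.53 in JZL184 libraries 1 to 4. JZL184 library 2 held the highest and JZL184 library 4 the lowest value of the series. The log2 fold change was 0.12 (SE 0.30; edgeR adjusted p = 0.831) for SAP against control, 0.20 (SE 0.40; edgeR adjusted p = 0.777) for JZL184 against control and 0.10 (SE 0.33; edgeR adjusted p = 0.869) for JZL184 against SAP, and in the last comparison the mean FPKM had the opposite sign (9.11 ± 0.955 in SAP and 8.66 ± 3.15 in JZL184, as mean ± SD of 4 libraries). With Il1b set against its antagonist within a library, the FPKM ratio of Il1b to Il1rn was 0.746 to 1.32 in control, 2.77, 1.08, 3.49 and 0.810 in SAP libraries 1 to 4, and 3.61, 3.51, 2.58 and 4.33 in JZL184 libraries 1 to 4. All JZL184 libraries therefore had more Il1b than Il1rn per length, as did SAP libraries 1 to 3 and control library 3.

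**Figure D3:**
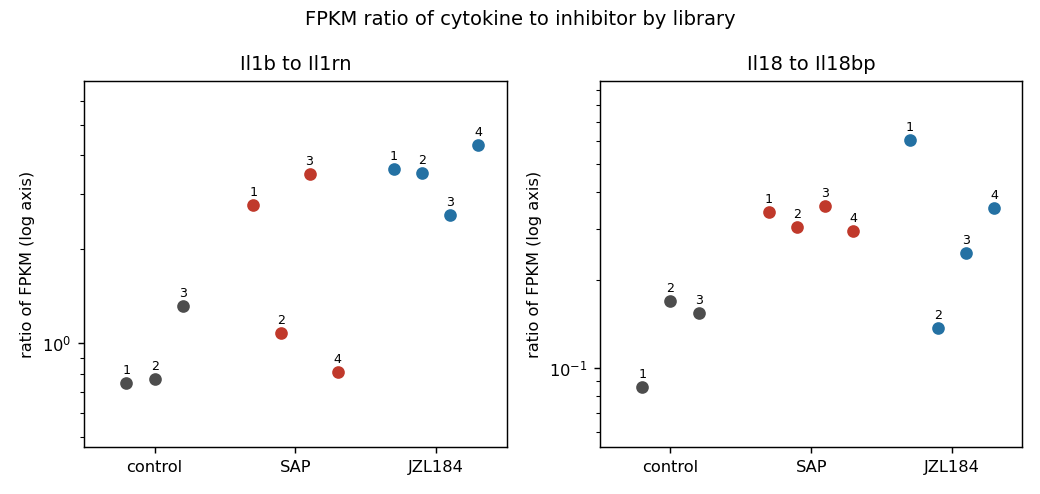
FPKM ratio (log axis) of Il1b to its antagonist Il1rn (left) and of Il18 to its binding protein Il18bp (right), 1 point per library with its replicate number. The Il1b ratio is 2.58 to 4.33 in the JZL184 group and spreads from 0.810 to 3.49 in SAP, and the Il18 ratio spreads from 0.137 to 0.603 in the JZL184 group.

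The signalling receptor Il1r1 gave the clearest order of the 3 groups. Its FPKM was 0.45, 0.44 and 0.77 in control libraries 1 to 3, 2.21, 1.88, 1.44 and 1.18 in SAP libraries 1 to 4, and 4.24, 4.42, 5.41 and 6.46 in JZL184 libraries 1 to 4. No 2 groups overlapped. Il1r1 rose in the JZL184 group against control with a log2 fold change of 3.06 (SE 0.37; edgeR adjusted p = 0.0149), an 8.33-fold difference, and ranked 26 by p among 15916 genes. JZL184 against SAP gave 1.80 (SE 0.26; edgeR adjusted p = 0.0604; DESeq2 adjusted p = 1.02e-06), rank 9 of 15308 genes, with an exact permutation p of 0.0286. For SAP against control it was 1.29 (SE 0.37; edgeR adjusted p = 0.459; DESeq2 adjusted p = 0.0886). Without SAP libraries 1 and 2 the log2 fold change of JZL184 against SAP was 2.03 (edgeR adjusted p = 0.171) and that of SAP against control 1.06 (edgeR adjusted p = 0.342). With offsets for gene length, that of SAP against control was 0.85 (edgeR adjusted p = 0.469). The call of JZL184 against control was lost when JZL184 library 2 or either control sample was left out, whereas the log2 fold change stayed between 2.75 and 3.42 in every such fit.

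The decoy receptor Il1r2, which neutrophils and monocytes shed, was spread more widely. Control libraries 1 to 3 held 0.56, 0.34 and 0.49 FPKM, SAP libraries 1 to 4 held 2.18, 1.12, 2.66 and 0.55, and JZL184 libraries 1 to 4 held 2.83, 10.65, 3.84 and 2.95. All JZL184 libraries lay above all SAP libraries, and SAP library 4 was at the level of control library 1. Il1r2 had a log2 fold change of 3.46 (SE 0.76; edgeR adjusted p = 0.0573; DESeq2 adjusted p = 8.16e-06) for JZL184 against control, 1.88 (SE 0.62; edgeR adjusted p = 0.148; DESeq2 adjusted p = 0.0317; exact permutation p = 0.0286) for JZL184 against SAP, and 1.61 (SE 0.65; edgeR adjusted p = 0.459) for SAP against control. JZL184 library 2, at 10.65 FPKM, was also the library with the highest sum of neutrophil markers (246 FPKM, nearly all from S100a8 and S100a9). Its Cxcr2 (0.20 FPKM), Csf3r (0.61) and Mpo (0.08) were below those of SAP library 1 (0.39, 0.99 and 0.30). Ngp, another neutrophil marker, went the other way, at 0.50 FPKM (17 reads) in JZL184 library 2 and 0 in SAP library 1. The part of neutrophils in this result was not tested. Without JZL184 library 2 the log2 fold change of JZL184 against SAP was 1.10.

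The accessory chain Il1rap, which both IL-1 and IL-33 receptors need, was low throughout. It was at 0.18, 0.17 and 0.16 FPKM in control libraries 1 to 3, 0.49, 0.53, 0.29 and 0.11 in SAP libraries 1 to 4, and 0.19, 0.21, 0.24 and 0.19 in JZL184 libraries 1 to 4. Control and JZL184 values were tight, while SAP libraries 1 to 3 lay above them and SAP library 4 below. For Il1rap the log2 fold change was 0.88 (SE 0.56; edgeR adjusted p = 0.475) for SAP against control, -0.55 (SE 0.40; edgeR adjusted p = 0.430) for JZL184 against SAP and 0.29 (SE 0.33; edgeR adjusted p = 0.596) for JZL184 against control. Without SAP libraries 1 and 2 the first became 0.19 and the second turned to 0.12. The Il1r1 chain and its partner Il1rap differed in the order of the groups: Il1r1 was highest in JZL184 and Il1rap was highest in SAP by group mean (0.355 FPKM against 0.208 in JZL184 and 0.168 in control).

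Il33 followed another order. Its FPKM was 2.08, 2.13 and 2.16 in control libraries 1 to 3, 8.92, 6.88, 4.08 and 1.89 in SAP libraries 1 to 4, and 4.35, 0.65, 0.74 and 0.73 in JZL184 libraries 1 to 4. Of the SAP libraries 3 of 4 were above all control libraries, and 3 of 4 JZL184 libraries were below them, with JZL184 library 1 standing apart from its group. By edgeR the log2 fold change of Il33 was 1.14 (SE 0.54; edgeR adjusted p = 0.459) for SAP against control, -1.60 (SE 0.66; edgeR adjusted p = 0.206; exact permutation p = 0.0857) for JZL184 against SAP and -0.49 (SE 0.73; edgeR adjusted p = 0.699) for JZL184 against control. When JZL184 library 1 was left out, Il33 was called by edgeR as lower in JZL184 against both groups, at -2.68 against SAP (adjusted p = 0.0307) and -1.60 against control (adjusted p = 0.0160). Without SAP libraries 1 and 2, which held the most Il33, the log2 fold change fell in size to -0.87 (edgeR adjusted p = 0.585) for JZL184 against SAP and to 0.40 (edgeR adjusted p = 0.919) for SAP against control.

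The summed fibroblast markers were highest in the same SAP libraries, though not each marker was. The 5 fibroblast markers, all detected in every group, summed to 51.4 to 79.8 FPKM in control, 100.2, 137, 95.8 and 54.8 in SAP libraries 1 to 4, and 28.0 to 54.2 in JZL184. Col1a1, a collagen chain in that list, was at 8.22 and 7.78 FPKM in SAP libraries 1 and 2, against 18.17 to 21.29 in control. SAP library 4, with the lowest Il33 of its group, had the lowest fibroblast sum of its group, but JZL184 library 1, with the highest Il33 of its group, had a sum of 44.0 FPKM, below the 54.2 of JZL184 library 3. The 5 endothelial markers summed to 17.1 to 19.4 FPKM in control, 23.4 to 32.6 in SAP and 23.7 to 32.7 in JZL184. These markers differed from each other. Tek was at 2.34, 3.38, 1.62 and 1.45 FPKM in SAP libraries 1 to 4 and at 0.84 to 1.78 in JZL184. Cdh5 and Kdr were also highest of the SAP group in libraries 1 and 2. Pecam1 was lowest of that group in SAP library 1 (8.66 FPKM), and Vwf was highest in SAP library 3 (8.87). The part of these cell types in the Il33 values was not tested.

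Il1rl1, the gene of the IL-33 receptor ST2, which mast cells and type 2 lymphocytes carry, was lowest in the JZL184 group. It was at 0.41, 0.42 and 0.41 FPKM in control libraries 1 to 3, 0.29, 0.73, 0.35 and 0.27 in SAP libraries 1 to 4, and 0.22, 0.21, 0.18 and 0.17 in JZL184 libraries 1 to 4. Each JZL184 library was below every other library. Its log2 fold change was -0.86 (SE 0.37; edgeR adjusted p = 0.217; exact permutation p = 0.0286) for JZL184 against SAP and -1.09 (SE 0.34; edgeR adjusted p = 0.101; DESeq2 adjusted p = 0.0627) for JZL184 against control, neither called by edgeR or DESeq2 with control libraries 1 and 2 as 1 sample, and -0.20 (SE 0.45; edgeR adjusted p = 0.823) for SAP against control. Il1rl1 was called as lower in JZL184 against control by limma-voom (adjusted p = 0.0274), which called 18.3% of all genes. With 3 control libraries it was called by edgeR (adjusted p = 0.0218, with 18.1% of all genes called) and DESeq2 (adjusted p = 0.00263, with 19.4% called). Fits with 3 control libraries count the near-identical control libraries 1 and 2 as separate samples. The 6 mast cell markers, all detected in each group, summed to 5.75 to 8.43 FPKM in control, 5.42 to 9.64 in SAP and 2.30 to 4.16 in JZL184. In these sums the groups JZL184 and SAP again did not overlap, and SAP library 2, with the most Il1rl1, had the highest sum. The mast cell markers differed from each other. Cpa3 was at 0.06 to 0.36 FPKM in JZL184, below every SAP library (at least 0.84). Ms4a2 was at 1.63 to 3.24 FPKM in SAP and 0.33 to 1.88 in JZL184. Kit was at 0.53 to 1.05 FPKM in control and 0.73 to 1.77 in JZL184. Hdc was highest in JZL184 library 2 (1.08 FPKM) and lowest in JZL184 library 3 (0.2 FPKM). Tpsab1 and Tpsb2 rested on 0 to 5 reads per library. The 6 markers of T and innate lymphoid cells summed to 40.5 to 49.1 FPKM in control, 14.8 to 39.1 in SAP and 17.1 to 29.5 in JZL184. Most of that sum came from Cd3e and Cd4, and the other markers differed. Foxp3 was at 0.17 to 0.27 FPKM in SAP and 0.25 to 0.55 in JZL184, Il7r at 1.29 to 2.77 and 1.47 to 3.56, and Gata3 at 0.15 to 0.46 and 0.17 to 0.36. The part of mast cells and lymphoid cells in the Il1rl1 values was not tested.

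Il18 rose in the JZL184 group against control. Its FPKM was 0.58, 0.88 and 1.15 in control libraries 1 to 3, 1.92, 1.12, 2.09 and 2.78 in SAP libraries 1 to 4, and 3.71, 2.54, 4.83 and 4.48 in JZL184 libraries 1 to 4. Every JZL184 library was above every control library, SAP library 2 lay within the control range, and by FPKM SAP library 4 was above JZL184 library 2. On normalized counts these 2 libraries were at 16.3 and 16.5 CPM (counts scaled to the effective library size), so that JZL184 and SAP only just separated. The log2 fold change was 2.01 (SE 0.35; edgeR adjusted p = 0.0357) for JZL184 against control, 1.09 (SE 0.35; edgeR adjusted p = 0.146; DESeq2 adjusted p = 0.0543; exact permutation p = 0.0571) for JZL184 against SAP and 0.94 (SE 0.47; edgeR adjusted p = 0.459) for SAP against control. The call of JZL184 against control was lost when JZL184 library 2, JZL184 library 4 or either control sample was left out, at log2 fold changes of 1.76 to 2.28 over all such fits. The sum of 6 markers of epithelium, a cell type known to make IL-18, was 22021 to 22707 FPKM in control, 8576 to 16885 in SAP and 6269 to 15619 in JZL184. Its markers differed in direction: Cdh1, the E-cadherin gene, was at 105 to 118 FPKM in control, 132 to 166 in SAP and 151 to 194 in JZL184. The part of epithelial cells in the Il18 values was not tested.

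Il18bp, the soluble inhibitor of IL-18, had its highest values in 3 JZL184 libraries. It was at 6.78, 5.18 and 7.44 FPKM in control libraries 1 to 3, 5.62, 3.68, 5.83 and 9.40 in SAP libraries 1 to 4, and 6.15, 18.56, 19.52 and 12.71 in JZL184 libraries 1 to 4. JZL184 library 1 stayed within the control range and the other 3 lay above every other library. The log2 fold change was 1.36 (SE 0.46; edgeR adjusted p = 0.158; DESeq2 adjusted p = 0.0557; exact permutation p = 0.0571) for JZL184 against SAP, 1.08 (SE 0.50; edgeR adjusted p = 0.210) for JZL184 against control and -0.26 (SE 0.45; edgeR adjusted p = 0.769) for SAP against control. The FPKM ratio of Il18 to Il18bp was 0.0855 to 0.170 in control, 0.296 to 0.358 in SAP and 0.603, 0.137, 0.247 and 0.352 in JZL184 libraries 1 to 4. The SAP group was the tightest and lay wholly above the control group, and the JZL184 group spanned from the control range to above the SAP range.

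Il1r1, Il1r2 and Il1rl1 lie in 1 cluster of family receptors on chromosome 9, in the order Il1r2, H3f3al3, Il1r1, Il1rl2, Il1rl1, Il18r1 and Il18rap in RefSeq. The neighbours did not move as a block. For JZL184 against SAP, the log2 fold changes along the cluster were 1.88 for Il1r2, 1.80 for Il1r1, -0.86 for Il1rl1, -0.24 (SE 0.49) for Il18r1 and 0.84 (SE 0.48) for Il18rap, the last being the chains of the IL-18 receptor. Il1rl2, the IL-36 receptor, was under the count filter there, at 0.01 to 0.06 FPKM in JZL184 and 0.04 to 0.09 in SAP. Il18r1 was at 11.59 and 9.81 FPKM in SAP libraries 1 and 2, at 2.75 and 2.31 in SAP libraries 3 and 4, at 1.20 to 2.23 in control and at 2.74 to 7.69 in JZL184, and its log2 fold change against control was 1.73 (SE 0.71; edgeR adjusted p = 0.459) in SAP and 1.45 (SE 0.42; edgeR adjusted p = 0.0906; DESeq2 adjusted p = 0.0205) in JZL184.

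The other genes of the pathway were followed in 4 lists of 52 genes, of which 50 were in the read table and 41 to 43 were tested. These lists were compiled with earlier results of the data known. The first held 11 other ligands and receptors of the family, of which 4 or 5 were tested and 0 were called by edgeR in any comparison. For SAP against control, JZL184 against SAP and JZL184 against control, DESeq2 called 0, 0 and 2 (Il18r1 and Il18rap), against 1.23%, 6.98% and 10.8% of all genes. In that order, 1, 0 and 3 had an unadjusted p under 0.05, where 9.09%, 21.3% and 26.3% of all genes had one. Sigirr, a receptor that damps IL-1 signalling, was at 3.12 to 3.69 FPKM in control, 1.92 to 3.72 in SAP and 0.80 to 2.83 in JZL184, with a log2 fold change of -1.08 (SE 0.45; edgeR adjusted p = 0.171) for JZL184 against control. The IL-36 genes Il36g and Il36rn and the gene Il1f10 were at 0.14 FPKM or less in every library and were not tested.

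Of the 15 genes of the machinery that cuts and releases the cytokines, 12 were tested, and 8, 3 and 4 of them had positive log2 fold changes for SAP against control, JZL184 against SAP and JZL184 against control. In that order, edgeR called 0 in each and DESeq2 called 0, 2 and 1, where DESeq2 called 1.23%, 6.98% and 10.8% of all genes. An unadjusted p under 0.05 was found for 2, 4 and 4, against 9.09%, 21.3% and 26.3% of all genes. Their median log2 fold changes were 0.39, -0.50 and -0.32. Casp1, the protease that activates IL-1 beta and IL-18, was at 50.69, 48.20 and 60.50 FPKM in control, at 91.93, 109.92, 90.80 and 57.51 in SAP and at 33.98, 37.25, 41.24 and 32.51 in JZL184, so that every JZL184 library lay below every other library. Its log2 fold change was -1.09 for JZL184 against SAP (SE 0.24; edgeR adjusted p = 0.0851; DESeq2 adjusted p = 0.00287) and -0.63 for JZL184 against control (SE 0.25; edgeR adjusted p = 0.160). Nlrc4, an inflammasome sensor of bacterial flagellin, was at 3.19 to 12.22 FPKM in SAP and 1.47 to 3.51 in JZL184 (log2 fold change -1.27, SE 0.40; edgeR adjusted p = 0.140), and DESeq2 called it as well (adjusted p = 0.0467). Casp4, a sensor of intracellular lipopolysaccharide, differed in direction, at 0.92 to 1.54 FPKM in control and 3.82 to 9.35 in JZL184 (log2 fold change 2.09, SE 0.44; edgeR adjusted p = 0.0526; DESeq2 adjusted p = 0.000428). The smallest unadjusted p-values for SAP against control in this list belonged to Casp4, Nlrp1a (0.23 to 0.35 FPKM in control and 0.41 to 1.85 in SAP; log2 fold change 1.55, SE 0.66; edgeR adjusted p = 0.459) and Casp8, a protease that can also cut IL-1 beta (5.85 to 7.39 and 7.78 to 21.01 FPKM; log2 fold change 0.83, SE 0.41; edgeR adjusted p = 0.459). Capn2, a calpain of the protease family that cuts the IL-1 alpha precursor, was at 44.55 to 48.86 FPKM in SAP and 24.17 to 35.95 in JZL184 (log2 fold change -0.57, SE 0.22; edgeR adjusted p = 0.191).

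Among 16 genes of receptor signalling, all tested, edgeR called 1, in JZL184 against control, where it called 2.16% of all genes. That gene was Irak3, the kinase-like protein that restrains IL-1 and Toll-like receptor signals. Irak3 was at 0.25 to 0.30 FPKM in control, 0.45 to 0.90 in SAP and 0.76 to 1.55 in JZL184, and rose with a log2 fold change of 2.06 (SE 0.36; edgeR adjusted p = 0.0357). DESeq2 called it for JZL184 against SAP too (log2 fold change 1.07, SE 0.31 by edgeR; DESeq2 adjusted p = 0.0284), and added Traf6 and Tab3 against control. Traf6, a ubiquitin ligase that acts after the IRAK kinases, was at 1.23 to 2.76 FPKM in SAP and 1.45 to 5.43 in JZL184 (log2 fold change 1.16, SE 0.42; edgeR adjusted p = 0.172), and the kinase Irak1 was at 11.31 to 14.79 and 15.36 to 19.42 FPKM (log2 fold change 0.61, SE 0.20; edgeR adjusted p = 0.146). Tab1, a partner of the kinase TAK1, was lower in every SAP library (18.54 to 32.33 FPKM) than in any control library (40.23 to 42.21), with a log2 fold change of -0.84 (SE 0.37; edgeR adjusted p = 0.459). The list's median log2 fold changes were 0.34, 0.25 and 0.47 for SAP against control, JZL184 against SAP and JZL184 against control. In that order, 1, 3 and 6 of the 16 had an unadjusted p under 0.05, as did 9.09%, 21.3% and 26.3% of all genes. DESeq2 called 0, 1 and 3, against 1.23%, 6.98% and 10.8% of all genes. Myd88, the adaptor shared by all of these receptors, was at 10.67 and 12.25 FPKM in the 2 control samples, 12.98 to 15.88 in SAP and 14.08 to 23.06 in JZL184, with a log2 fold change of 0.60 (SE 0.31; edgeR adjusted p = 0.257) between JZL184 and control.

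The 10 genes known to be induced by IL-1 had the highest median of the 4 lists in each comparison. For JZL184 against control, 6 of the 9 tested rose by edgeR (Tnfaip3, Cxcl1, Cxcl2, Ccl2, Il6 and Lcn2) and all 9 were called by DESeq2, at a median log2 fold change of 4.04. Of all genes, edgeR called 2.16% and DESeq2 10.8% in that comparison. The neutrophil chemokine Cxcl1 was at 0.63, 0.87 and 4.15 FPKM in control libraries 1 to 3, 35.40, 5.90, 25.73 and 17.44 in SAP libraries 1 to 4, and 217.96, 339.16, 387.94 and 411.25 in JZL184 libraries 1 to 4. No 2 groups overlapped, and its log2 fold change was 7.14 (SE 0.83; edgeR adjusted p = 0.0144) for JZL184 against control, 4.18 (SE 0.54; edgeR adjusted p = 0.0604; DESeq2 adjusted p = 1.85e-12) for JZL184 against SAP and 3.00 (SE 0.92; edgeR adjusted p = 0.459; DESeq2 adjusted p = 0.0137) for SAP against control. The monocyte chemokine Ccl2 rose from 2.65 to 4.84 FPKM in control to 47.43 to 89.65 in JZL184 (log2 fold change 4.04, SE 0.43; edgeR adjusted p = 0.0112), with 9.11 to 46.80 in SAP. Lcn2, an iron-sequestering protein of epithelium and neutrophils, rose from 1.57 to 3.25 FPKM in control to 100.35 to 504.36 in JZL184 (log2 fold change 6.95, SE 0.87; edgeR adjusted p = 0.0155), and SAP held 29.28 to 100.30. Over all 4 lists edgeR called 7 genes for JZL184 against control, where it called 2.16% of all genes. This count was 1 without JZL184 library 2 (0.158% of all genes), 4 without JZL184 library 4 (0.493%) and 13 without JZL184 library 1 (12%). The control values of Cxcl2 and Il6 rest on 0 to 10 and 0 to 7 reads.

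For SAP against control, the same list had 0 genes called by edgeR and 5 at an unadjusted p under 0.05 (9.09% of all genes). DESeq2 called 5 (Cxcl1, Cxcl2, Ccl2, Il6 and Lcn2), against 1.23% of all genes. Nfkbia (log2 fold change -0.79, SE 0.38, edgeR adjusted p = 0.459) and Zc3h12a (-0.41, SE 0.30, edgeR adjusted p = 0.510) went the other way. Both lay wholly below control on normalized counts, as did 13.1% of all genes. By FPKM control held 110.06 to 165.20 of Nfkbia and 10.60 to 14.17 of Zc3h12a. The median log2 fold change was 2.76. That median was the same with Ptgs2, at 0 reads in every control library and 78 in SAP in all, set to its bound over a floor of 3 reads in the control group. For JZL184 against SAP, edgeR called 0 of 9, with 8 at an unadjusted p under 0.05 (21.3% of all genes). DESeq2 called 8, all higher, against 6.98% of all genes, and the median log2 fold change was 2.34. These 8 included 3 feedback inhibitors of NF-kB signalling and inflammatory mRNA. Nfkbia, the inhibitor of NF-kB, was at 59.11 to 121.10 FPKM in SAP and 203.98 to 573.44 in JZL184 (log2 fold change 2.34, SE 0.41; edgeR adjusted p = 0.0693). Zc3h12a, an RNase that degrades cytokine mRNA, was at 8.17 to 14.86 FPKM in SAP, and JZL184 libraries 1 to 4 held 17.98, 126.95, 99.42 and 102.50 (log2 fold change 3.20, SE 0.56; edgeR adjusted p = 0.0693). JZL184 library 1 was the lowest of its group for Nfkbia, Nfkbiz, Zc3h12a, Tnfaip3, Cxcl1, Cxcl2 and Lcn2. It was the highest of its group for Il6 (10.41 FPKM) and Ptgs2 (0.13 FPKM, 8 reads), and Ccl2 was lowest in JZL184 library 2.

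**Figure D4:**
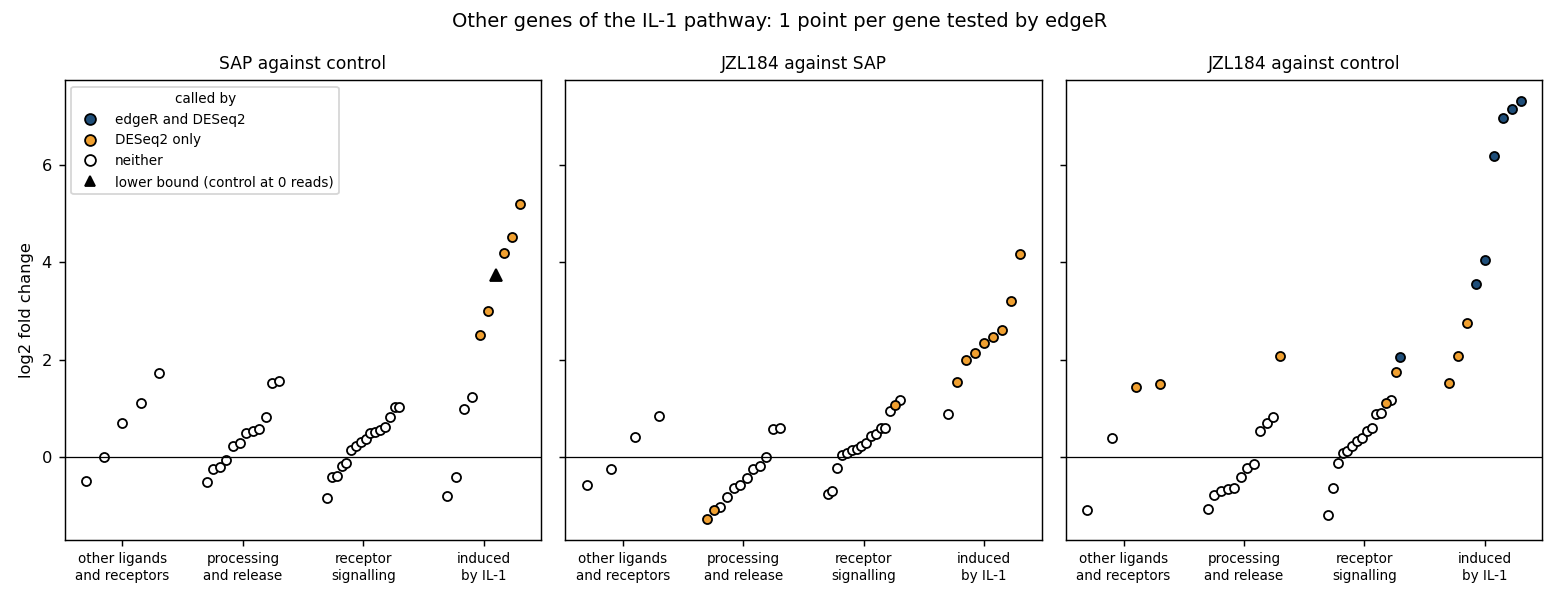
Log2 fold changes by edgeR of the other IL-1 pathway genes, 1 point per tested gene ordered by value within each of 4 lists, in the 3 comparisons; fill shows which tools called the gene, and the triangle is Ptgs2 at its lower bound. The genes induced by IL-1 have the highest medians (2.76, 2.34 and 4.04), and the processing genes have medians of -0.50 and -0.32 in the comparisons of the JZL184 group.

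The genes with the profile most like that of 3 members were found by the mean squared difference of scaled log2(FPKM + 0.1) values over the 10 samples. The search covered 10252 genes with a mean of at least 1 FPKM and left out symbols that start with LOC, RGD or AABR. For Il1b the most alike genes were the chemokine Cxcl3 (0.101), the decoy receptor Il1r2 (0.165) and the calprotectin subunit S100a8 (0.179). Cxcl3 was at 0.82 to 1.78 FPKM in control, 2.89 to 14.92 in SAP and 16.94 to 56.73 in JZL184. For Il1r1 they were the glucose transporter Slc2a3 (0.0404), Fv1 (0.0471) and the kinase Irak1 (0.0544), and Slc2a3 was at 0.64 to 0.91, 0.98 to 1.65 and 2.44 to 3.86 FPKM in control, SAP and JZL184, again with no overlap. For Il33 they were Mre11, a nuclease of DNA break repair (0.0146), Ganab, a glucosidase of the endoplasmic reticulum (0.0259), and Ttc37 (0.0400). Mre11 shared the order of Il33 but not its range, at 3.20 to 3.68 FPKM in control, 3.42 to 5.77 in SAP and 2.24 to 4.90 in JZL184.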

How the data were processed

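Read counts per gene (unnormalized) and FPKM values were used as deposited by the authors; reads had been trimmed with FASTX-Toolkit, aligned to mRatBN7.2 with HISAT2, and counted where they aligned uniquely. Which tool counted them, and whether strand was used, is not given in the sources used here. Members and lists were chosen with earlier results of these data known. Named genes were the 10 members, up to 3 genes per list and comparison with the smallest edgeR p, and the 3 most alike profiles; Il36g, Il36rn, Il1f10, Myd88, Tnfaip3, Cxcl2 and Il6 and the other called or control genes were chosen after their values were seen. Counts were tested with edgeR 4.0.16 (quasi-likelihood, TMM, filterByExpr minimum count 10, Benjamini-Hochberg over all genes tested) in R 4.3.3, for each of 3 comparisons on its own samples, with control libraries 1 and 2 summed. Single FPKM values were compared by two-sided exact permutation tests; 4 against 2 samples cannot go below p = 0.0667. Scripts were tested on simulated data. Alternatives were DESeq2 1.42.0, limma 3.58.1, other scaling and filters, length offsets, 3 control libraries, a replicate block and each sample left out. Whether replicates were separate animals is not stated in the labels, so p-values measure the spread between these samples. Levels per length depend on the authors' gene models.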

Additional observations from a re-analysis of the deposited data

Results flagged for a closer look

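Of 20 tests for a sample far from its group (10 genes in the SAP and JZL184 groups of 4), 2 passed Dixon's 95% criterion, where chance passes about 1 in 20. Il1r2 in JZL184 library 2 was at 10.65 FPKM, with the gap to the next library making up 0.871 of the group's range. Il33 in JZL184 library 1 was at 4.35 FPKM, with a gap of 0.976 of the range.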

How the results depend on the processing

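The number of members called depended on the tool and on single samples, as did the number of all genes called. For SAP against control it was 2 by DESeq2 with 3 control libraries (Il1r1 and Il1r2; 8.46% of all genes), and 0 in each fit that left out 1 sample. For JZL184 against SAP it was 3 by DESeq2, 3 by limma-voom with sample quality weights, 1 with no filter on low counts (Il1r1) and 1 with all 3 groups in 1 fit (Il1r1), where 6.98%, 4.57%, 0.112% and 1.25% of all genes were called, and with 1 sample left out it ranged from 0 to 2, the highest without JZL184 library 1 (4.21% of all genes). For JZL184 against control it was 5 by DESeq2, 6 by limma-voom, 5 with no filter, 6 with 3 control libraries and 7 by DESeq2 with 3 control libraries, where 10.8%, 18.3%, 3.93%, 18.1% and 19.4% of all genes were called, and with 1 sample left out it ranged from 0 to 7 (0% to 12% of all genes). The other pathway genes called for SAP against control were 5 by DESeq2, 1 by limma-voom, 1 with no filter, 1 with 3 control libraries, 9 by DESeq2 with 3 control libraries and 2 without SAP libraries 1 and 2, where 1.23%, 0.0873%, 0.0601%, 0.213%, 8.46% and 0.482% of all genes were called. For JZL184 against SAP they were 11 by DESeq2 (6.98% of all genes), 7 by limma-voom (4.57%), 2 with no filter (0.112%) and 6 with all 3 groups in 1 fit (1.25%). With 1 sample left out they ranged from 0 to 6, with 1 without SAP library 2 (0.00644%) and 6 without JZL184 library 1 (4.21%). For JZL184 against control they were 15 by DESeq2 (10.8%), 18 by limma-voom (18.3%), 17 with 3 control libraries (18.1%) and 21 by DESeq2 with 3 control libraries (19.4%). They were 1 without JZL184 library 2 (0.158%) and 13 without JZL184 library 1 (12%). Members with an exact permutation p under 0.05 for JZL184 against SAP ranged from 2 (without SAP library 1, 2 or 3) to 4. That test has no value where 0.05 cannot be reached, which holds for both comparisons with control and for the fits without SAP libraries 1 and 2. Why these counts moved was not tested. Il18bp turned positive for SAP against control with length offsets (0.15) and without SAP libraries 1 and 2 (0.14). Il1rn turned negative for JZL184 against SAP by limma-voom (-0.087), without SAP libraries 1 and 2 (-0.12) and without JZL184 library 2 (-0.26, in a range up to 0.27 over the samples left out), and for JZL184 against control by limma-voom (-0.015) and without JZL184 library 2 (-0.15, in a range up to 0.37). Il1rap turned to 0.12 for JZL184 against SAP without SAP libraries 1 and 2 and to -0.16 for JZL184 against control with length offsets. Il1a could not be fitted for SAP against control without SAP libraries 1 and 2, being under the filter. Of the values of single members under all alternatives, 468 kept their direction and side of the threshold, 37 passed it newly, 11 no longer passed it and 12 changed sign.

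Pairing by replicate number was not visible: correlations of deviations between libraries of the same number were -0.304 to -0.152 for SAP and control, -0.449 to 0.123 for JZL184 and SAP, and -0.0955 to 0.111 for JZL184 and control. With 3, 4 and 3 pairs, not set against pairs of unlike number, these values cannot show whether the samples were paired. With the replicate number as a block and 3 control libraries, 5 members and 13 other pathway genes were called for JZL184 against control (9.65% of all genes), and 5 members with length offsets as well (7.58%); 0 members were called for the other comparisons. With block and offsets the log2 fold change of Il18bp was 0.062 for SAP against control, that of Il1rn -0.034 for JZL184 against SAP and that of Il1rap -0.17 for JZL184 against control. Il1a rests on 3 to 9 reads in the control libraries, which limits its fold change.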
